A study of Mus musculus with 10 samples.

Results

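Spiral ganglion neurons carry sound information from the hair cells of the cochlea to the brainstem. Most of them are type I neurons, which contact inner hair cells and fall into the subtypes Ia, Ib and Ic, while the few type II neurons contact outer hair cells. The subtypes are told apart in single-cell studies by the amounts of calcium-binding proteins, adhesion molecules and transcription factors they make, and these differences are still being set up around birth. Here 9 marker genes of these subtypes were followed in whole cochlear RNA: Calb2 and Pcdh20 (type Ia), Calb1 (type Ib), Pvalb (found widely in type I neurons and graded among them), Lypd1 and Pou4f1 (type Ic), Runx1 (types Ib and Ic), and Prph and Th (type II). The 9 genes were found by symbol among the 54532 genes of the deposited count table, and all 9 were among the 17937 genes with enough counts to be tested. They were selected on earlier results of these data, in which Calb2 and Pvalb were lower in the knockout libraries, so the values of these 2 genes are given as a description with no test.

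The soft tissue of both cochleae of a single animal made up each library, and all animals were female mice on postnatal day 1. The control group, with genotype Esrrgfl/fl, had 5 libraries. The conditional knockout (cKO) group, with genotype Esrrgfl/fl;Sox10-Cre, also had 5. Both groups therefore carry the loxP-flanked Esrrg gene, which encodes the nuclear receptor estrogen-related receptor gamma, and they differ in the Cre recombinase. Cre is driven here by regulatory sequence of Sox10, a gene active in the early otic epithelium, in glia and in melanocytes, so recombination is not limited to neurons, and no group carried Cre without the floxed gene. The question put to the data was whether the lower level of Calb2 was shared by the markers of one subtype or of all, and how the markers varied together between libraries.

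The libraries held 33.5 to 41.8 M counts each. Esrrg itself had 1725 to 2414 counts in the controls and 2768 to 3632 in the other group, or 58.4 ± 6.34 and 89.8 ± 15.2 CPM, which are counts scaled to library size (SD, n = 5 each). By edgeR the rise was 0.62 on the log2 scale (SE 0.117; adjusted p = 0.0259), and no library overlapped the other group. This call held in 3 of the 10 fits with a library left out, and the adjusted p reached 0.0992 without cKO 2. Summed over the whole gene, these counts cannot tell a deleted exon from an intact one. Because the targeted gene was higher and not lower, the Cre group is referred to as the libraries labelled cKO, and every direction below rests on that label. Control 2 had a score of -29.0 on the main axis of variation, where the remaining controls lay between -4.11 and 5.70, so results are also given without it where that changes them. At an edgeR adjusted p under 0.05, 111 of the tested genes, or 0.619%, differed between the groups. The calls comprised 0.546% of tested genes in the downward direction and 0.0725% in the upward one.

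Calb2 and Calb1 encode calretinin and calbindin, related proteins with several EF-hand calcium-binding loops, and their coding sequences are shown because their levels are compared below. In the GENCODE M21 transcripts the coding sequence has 813 bases for Calb2 and 783 for Calb1. Over 778 aligned positions 65.9% were identical, and the longest stretch shared in any register was 12 bases, well under the read length of 150 bases. The most alike ungapped window of 60 bases, at coding positions 636 to 695 of Calb2 and 609 to 668 of Calb1, had 49 identical bases. Capitals mark the bases that differ.
Calb2: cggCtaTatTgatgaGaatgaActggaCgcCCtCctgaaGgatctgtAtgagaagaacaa
Calb1: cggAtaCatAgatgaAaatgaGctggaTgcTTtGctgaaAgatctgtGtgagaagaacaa

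The markers spanned a wide range of levels per gene length in the controls. In FPKM (fragments scaled to gene length and library size, as the authors deposited them), Pvalb was highest at 81.6 ± 24.1, followed by Calb2 at 52.9 ± 14.6 and Calb1 at 18.6 ± 3.60 (SD, n = 5 each). Next came Prph at 9.55 ± 6.46, Pcdh20 at 7.42 ± 1.48, Lypd1 at 4.92 ± 0.723 and Pou4f1 at 2.91 ± 0.248. Runx1 had 2.11 ± 0.254 and Th 0.917 ± 0.260. The control ranges of neighbours in this order overlapped for Pvalb and Calb2, for Calb1 and Prph, and for Prph and Pcdh20, and were apart for the other neighbours. Pvalb nevertheless exceeded Calb2 in 5 of 5 control libraries. In the libraries labelled cKO, Calb2 had 16.6 ± 4.46 FPKM beside 19.8 ± 2.13 for Calb1, so the order of these 2 means was the opposite there. Their ranges overlapped in that group, and in cKO 3 Calb2 had 22.2 FPKM against 20.8 for Calb1.

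**Figure D1:**
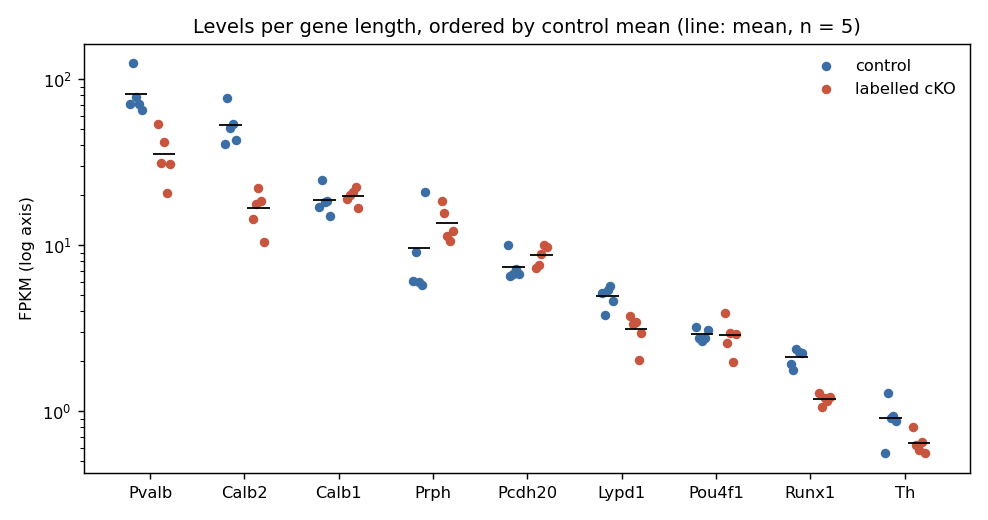
FPKM of the 9 markers on a log axis, ordered by the control mean; each point is a library and each line the mean of 5. The mean of Calb2 was above that of Calb1 in the controls (52.9 against 18.6) and below it in the libraries labelled cKO (16.6 against 19.8), where the ranges overlapped.

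The type Ia markers did not move together. Calb2 (ENSMUSG00000003657; GRCm38 chromosome 8, 110137502 to 110168210, minus strand) had 70.5, 137, 88.6, 93.2 and 75.8 CPM in controls 1 to 5. It had 25.1, 31.0, 38.9, 32.2 and 18.4 CPM in the libraries labelled cKO 1 to 5. Every library labelled cKO was below every control, with a log2 fold change of -1.67 (SE 0.202) that stayed between -1.80 and -1.501 when any single library was left out. In whole tissue, fewer cells of a type and less RNA per cell cannot be told apart. Pcdh20 (ENSMUSG00000050505; chromosome 14, 88464743 to 88471396, minus strand) encodes protocadherin 20, a cell adhesion protein. It had 55.3, 36.7, 36.8, 39.5 and 37.1 CPM in the controls and 40.4, 41.5, 48.6, 54.8 and 54.0 CPM in the libraries labelled cKO. The groups overlapped through control 1, the highest library, and the log2 fold change was 0.22 (SE 0.130; 95% interval -0.058 to 0.50; edgeR adjusted p = 0.621). Without control 1 it was 0.35, with an adjusted p of 0.247. The ratio of Calb2 to Pcdh20 CPM lay between 1.27 and 3.74 in the controls and between 0.342 and 0.800 in the libraries labelled cKO. This ratio contains the value that drew attention to Calb2 and was not tested. Rxrg, a nuclear receptor gene also known from type Ia neurons, averaged 10.6 ± 1.76 CPM in the controls against 11.5 ± 1.28 (SD, n = 5 each), with an edgeR adjusted p of 0.778 for a log2 change of 0.12.

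Calb1, a type Ib marker and the closest relative of Calb2 on the list, showed no called difference. Calb1 (ENSMUSG00000028222; chromosome 4, 15881264 to 15908064, plus strand) had 82.7, 122, 88.3, 89.9 and 73.2 CPM in the controls and 92.2, 96.6, 101, 109 and 82.4 CPM in the libraries labelled cKO. The ranges overlapped almost fully. The log2 fold change was 0.08 (SE 0.121; 95% interval -0.18 to 0.34; edgeR adjusted p = 0.850). It was 0.20 without control 2 and 0.011 without control 5, with adjusted p of 0.439 and 0.983. Ntng1, an axonal adhesion gene listed with type Ib, had a log2 fold change of -0.37 (SE 0.121; edgeR adjusted p = 0.305).

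Pvalb encodes parvalbumin, a fast calcium buffer. Pvalb (ENSMUSG00000005716; chromosome 15, 78191114 to 78206400, minus strand) had 73.8, 132, 81.0, 74.1 and 68.2 CPM in the controls and 55.7, 32.4, 43.5, 21.4 and 32.4 CPM in the libraries labelled cKO. The groups did not overlap, with control 2 well above the rest of its group. The log2 fold change was -1.21 (SE 0.231), and -1.01 without control 2. The gene lies 0.949 Mb from Sox10, whose regulatory sequence drives Cre; the part of that neighbourhood in the result was not tested. Parvalbumin is also made in hair cells and fast muscle. The summed CPM of the 15 hair cell genes lay between 371 and 459 in the controls and between 370 and 461 in the libraries labelled cKO, with 8 of 14 tested genes lower. EdgeR called 0 of them, with 1 at an unadjusted p under 0.05 and 0 called by DESeq2 or by limma-voom. For 7 skeletal muscle genes the sums were 5.46 to 7.83 and 6.78 to 7.95 CPM. Of these muscle genes 5 were tested, 3 being lower and 2 higher. EdgeR called 0 of them, with 1 at an unadjusted p under 0.05, while DESeq2 and limma-voom called 1 each.

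The type Ic markers differed among themselves. Runx1 (ENSMUSG00000022952; chromosome 16, 92601466 to 92826149, minus strand) encodes a transcription factor that helps set the Ib and Ic identities. It had 23.2, 21.6, 28.4, 27.4 and 27.2 CPM in the controls and 15.5, 12.8, 14.6, 13.8 and 14.8 CPM in the libraries labelled cKO. All libraries labelled cKO were below all controls and lay close together. Runx1 fell by 0.84 on the log2 scale (SE 0.101; edgeR adjusted p = 0.00108), on 770 to 1063 counts per control and 448 to 587 counts per library labelled cKO. The adjusted p was at most 0.00629 in the 10 edgeR fits with a library left out, all of which called the gene lower. Runx1 is also active in blood cells and macrophages. The 12 macrophage and blood genes had sums of 522 to 1441 CPM in the controls and 438 to 844 CPM in the libraries labelled cKO. Of these 12 genes 6 were lower and 6 higher, none was at 0 counts throughout, and edgeR called 0, with 2 at an unadjusted p under 0.05 and 0 called by DESeq2 or limma-voom. The part of these cells in the Runx1 result was not tested. A gene that overlaps Runx1 on the opposite strand, Gm26626, had at most 1 count in any library.

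Lypd1 (ENSMUSG00000026344; chromosome 1, 125867622 to 125913101, minus strand) encodes a membrane-anchored protein of the Ly6 family that acts on nicotinic acetylcholine receptors. It had 36.3, 27.4, 37.9, 39.9 and 33.0 CPM in the controls and 26.5, 23.5, 24.4, 14.4 and 21.0 CPM in the libraries labelled cKO. The groups were apart by less than 1 CPM, between control 2 and cKO 1. The log2 fold change was -0.67 (SE 0.150; 95% interval -0.99 to -0.35), and the edgeR adjusted p of 0.0746 missed the threshold. Without control 2 it was 0.0177, at a log2 fold change of -0.75. DESeq2 and limma-voom also called the gene, with adjusted p of 0.00412 and 0.00400. Of the 10 edgeR fits with a library left out, only 1 called it, and the adjusted p reached 0.217 without control 3. In all, 3 of 10 other settings called it, and limma on log2 of FPKM plus 0.1 gave an adjusted p of 0.126. Exons of Lypd1 overlap those of Gpr39 on the opposite strand, which had 10 to 14 counts per library.

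Pou4f1 (ENSMUSG00000048349; chromosome 14, 104461676 to 104467999, minus strand) encodes a POU-domain transcription factor of sensory neurons. It had 15.2, 13.2, 12.5, 13.03 and 14.7 CPM in the controls and 18.2, 12.1, 13.9, 9.22 and 13.9 CPM in the libraries labelled cKO. The second group surrounded the first, with the highest and the lowest library both labelled cKO. The log2 fold change was -0.03 (SE 0.150; 95% interval -0.35 to 0.30; edgeR adjusted p = 0.965), and its sign changed in 4 of the 10 fits with a library left out. The CPM ratio of Runx1 to Pou4f1 was 1.53 to 2.28 in the controls and 0.850 to 1.501 in the libraries labelled cKO. The ratio of Lypd1 to Pou4f1 was 2.08 to 3.06 and 1.46 to 1.95. Neither ratio overlapped between the groups; they were not tested. Grm8, a glutamate receptor gene also listed with type Ic, had a log2 fold change of 0.33 (SE 0.250; edgeR adjusted p = 0.679).

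Neither type II marker was called. Prph (ENSMUSG00000023484; chromosome 15, 99055174 to 99058978, plus strand) encodes peripherin, an intermediate filament protein of peripheral neurons. It had 12.2, 18.6, 12.004, 11.5 and 42.1 CPM in the controls and 36.9, 31.0, 22.8, 21.4 and 24.6 CPM in the libraries labelled cKO. Control 5 was the highest of all 10 libraries, while the other 4 controls were below every library labelled cKO. With all libraries the log2 fold change was 0.50 (SE 0.338; 95% interval -0.23 to 1.24; edgeR adjusted p = 0.651). Without control 5 it was 1.01, with an adjusted p of 0.0379. Th (ENSMUSG00000000214; chromosome 7, 142892752 to 142931128, minus strand) encodes tyrosine hydroxylase, the rate-limiting enzyme of catecholamine synthesis. It was the lowest marker, with 57 to 111 counts per control and 49 to 64 per library labelled cKO, and the groups overlapped through control 1. In CPM it had 1.33, 3.12, 2.17, 2.22 and 2.10 in the controls and 1.92, 1.49, 1.39, 1.56 and 1.34 in the libraries labelled cKO. Its log2 fold change was -0.51 (SE 0.218; 95% interval -0.97 to -0.037; edgeR adjusted p = 0.484). That interval, which is not adjusted for the number of genes, lay below 0. Tyrosine hydroxylase and peripherin also occur in sympathetic neurons. The 12 genes of catecholamine synthesis and sympathetic neurons summed to 11.1 to 16.8 CPM in the controls and 9.95 to 13.7 CPM in the libraries labelled cKO. Dbh, which such neurons need to make noradrenaline, had at most 1 count per library. The dopa decarboxylase gene Ddc had a log2 fold change of 0.12 (SE 0.166; edgeR adjusted p = 0.829).

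**Figure D2:**
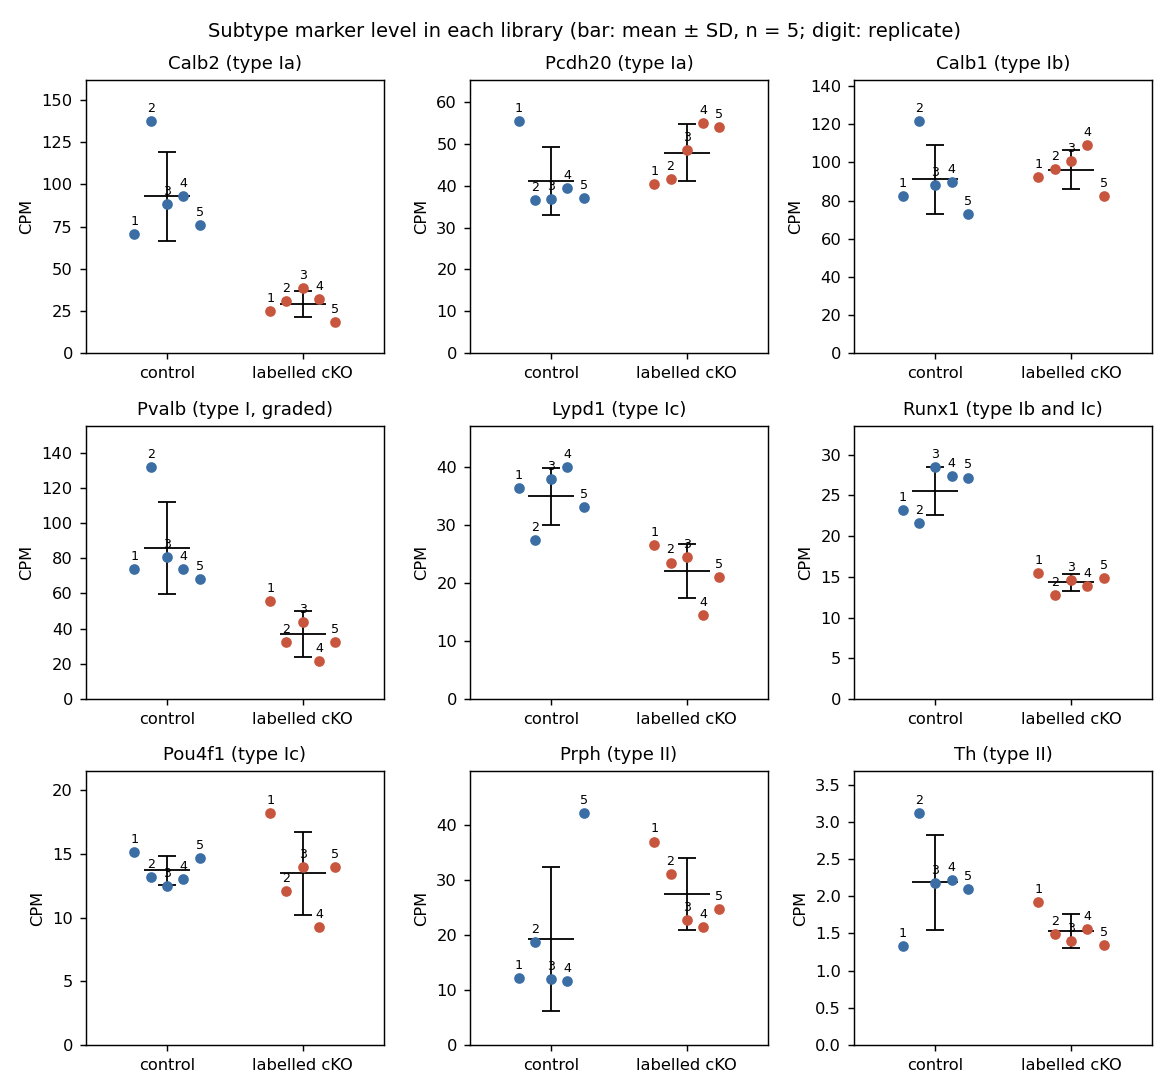
CPM of each marker by library, with the replicate number beside each point and the mean ± SD of 5 libraries as bars; every axis starts at 0. Calb2, Pvalb, Lypd1 and Runx1 did not overlap between the groups, and control 5 alone was high for Prph at 42.1 CPM.

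Among the 7 markers given a test, edgeR called 1, Runx1, beside 0.619% of all tested genes; nothing is read from this count, because the list was made with results of this contrast known. For 4 markers, Calb2, Pvalb, Lypd1 and Runx1, every library labelled cKO was below every control, as was the case for 1.64% of all tested genes, and again nothing is read from it. The fold changes were below 0 for 6 markers and above 0 for 3, and their median was -0.51 beside -0.01 for all tested genes. The subtypes Ia, Ib and Ic each held a marker without overlap between the groups and a marker whose 95% interval included 0. Those without overlap were Calb2 in Ia, Lypd1 in Ic, and Runx1, which was assigned to both Ib and Ic. Those with an interval that included 0 were Pcdh20 in Ia, Calb1 in Ib and Pou4f1 in Ic.

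**Figure D3:**
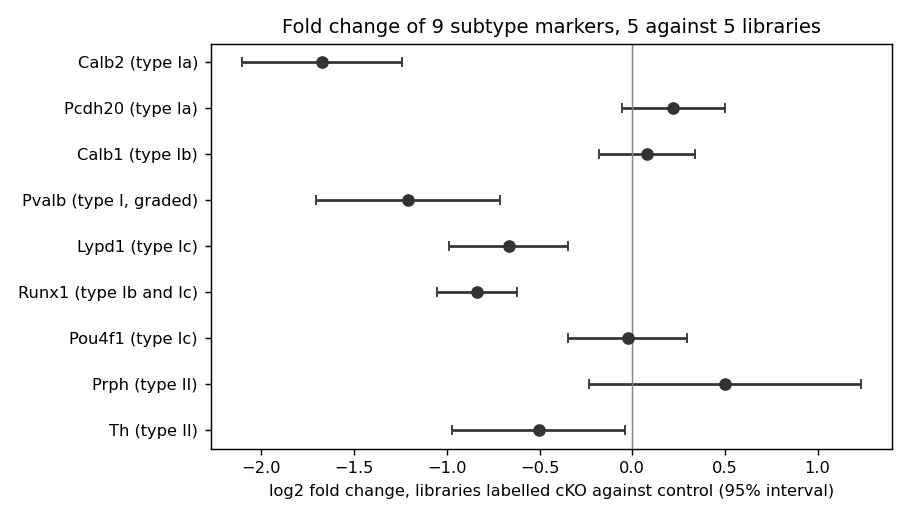
Log2 fold change of each marker with its 95% interval from the edgeR fit, libraries labelled cKO against control. Runx1 (-0.84), Lypd1 (-0.67) and Th (-0.51) have intervals wholly to the left of 0, and of these edgeR called Runx1 alone. Pcdh20 (0.22) and Calb1 (0.08) have intervals that include 0. Calb2 (-1.67) and Pvalb (-1.21) were selected on this contrast, so the position of their intervals is not a test. The intervals are not adjusted for the number of genes.

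The balance between single markers was then compared within each library, using 1 marker per subtype: Pcdh20 for Ia, Calb1 for Ib, Pou4f1 for Ic and Prph for type II. The comparison covers these 4 genes and not the subtypes as a whole. It leaves out Lypd1 of Ic and Runx1 of Ib and Ic, whose log2 fold changes were -0.67 and -0.84. None of the 6 log2 ratios differed between the groups by an exact two-sided permutation test, with adjusted p between 0.476 and 0.587 over the 6 pairs. The largest difference was for Pou4f1 to Prph, whose mean log2 ratio was -0.29 ± 0.751 in the controls and -1.02 ± 0.270 in those labelled cKO (SD, n = 5 each; exact permutation p = 0.0794). It depended on control 5: without it the exact permutation adjusted p was 0.0476 for Pou4f1 to Prph and for Calb1 to Prph, with differences of -1.03 and -0.98. The ratio of Pcdh20 to Calb1 differed by 0.13, and by -0.012 without control 2. The ratio of Calb1 to Pou4f1 differed by 0.15, and by -0.026 without cKO 4.

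Neuronal genes as a whole were also lower in some libraries. Of 15 general neuronal genes 13 had a lower mean in the libraries labelled cKO, and the median log2 fold change was -0.35. EdgeR called 2 lower, with 9 at an unadjusted p under 0.05, while DESeq2 and limma-voom called 4 each. The edgeR calls were Ina, a neuronal intermediate filament gene (-0.67, adjusted p = 0.0230), and Elavl4, an RNA-binding protein gene of neurons (-0.74, adjusted p = 0.00108). The summed CPM of the 15 genes ran from 1724 to 2090 in the controls and from 1064, in cKO 4, to 1984, in cKO 1. These are also the libraries with the lowest and the highest Pvalb, Lypd1 and Pou4f1 in their group. The call of Ina held in 4 of the 10 fits with a library left out. The part of these genes' level in the markers' differences was not tested beyond the comparison that follows.

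Each marker was set against the mean log2 CPM of those 15 genes in the same library. Pou4f1 was higher on this scale in every library labelled cKO than in any control: the mean was -2.83 ± 0.156 in the controls and -2.54 ± 0.0936 in those labelled cKO (SD, n = 5 each), a difference of 0.29. The exact permutation p of 0.00794, the smallest the design allows, became 0.0556 when adjusted over 7 markers. Runx1 and Lypd1 differed by -0.49 and -0.34, with exact permutation p of 0.0238 and 0.0317 and an adjusted p of 0.0741 for both. Prph differed by 1.02 (exact permutation adjusted p = 0.0833), Pcdh20 by 0.57 (0.102) and Th by -0.11 (0.635). Calb1 differed by 0.44, with an exact permutation p of 0.0714 before adjustment. With all libraries no marker passed the threshold, and the sign was positive for 4 of these 7 markers. Calb2 and Pvalb, given without a test, differed by -1.34 and -0.90. Against 12 genes of spiral ganglion identity in place of the general list, Runx1 differed by -0.67 and Lypd1 by -0.52, both with an exact permutation adjusted p of 0.0278, while Pou4f1 differed by 0.11 (0.413). Against the general list without control 2, Lypd1 (-0.45) and Pou4f1 (0.25) passed, each at an exact permutation adjusted p of 0.0278. Without control 5, Pou4f1 (0.33) and Prph (1.36) passed at the same adjusted p. Over the 10 comparisons with a library left out, Lypd1 and Prph passed in 1 each and Pou4f1 in 2. Calb1, Pcdh20, Runx1 and Th passed in 0.

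**Figure D4:**
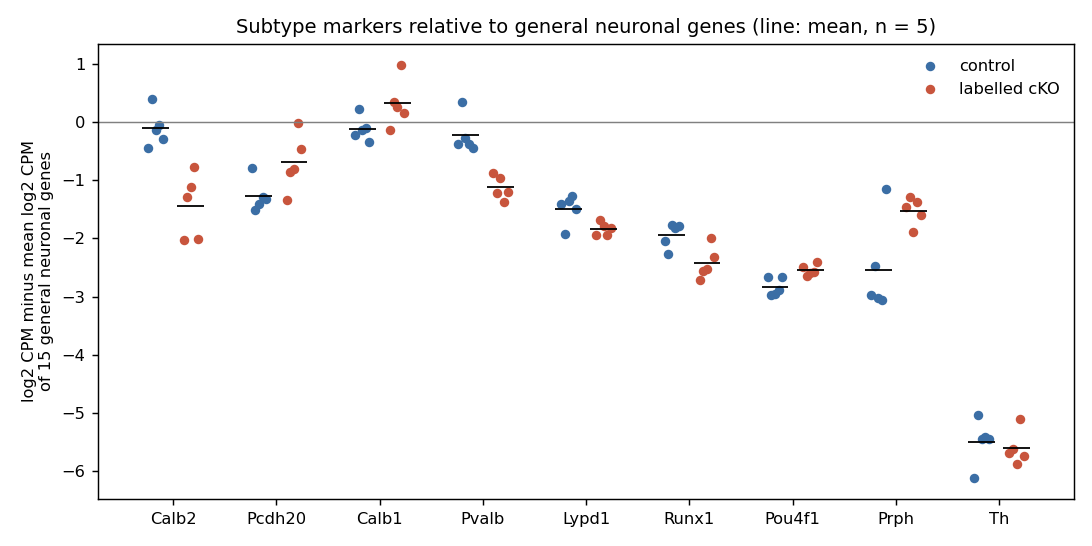
Log2 CPM of each marker minus the mean log2 CPM of 15 general neuronal genes, by library; lines are means of 5. Calb2 and Pvalb remained lower in the libraries labelled cKO on this scale, by -1.34 and -0.90, while Pou4f1 was higher by 0.29. The mean of the 15 genes was itself lower there, at 6.26 against 6.61 in the controls. The log2 fold change of Pou4f1 without this reference was -0.03.

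The wider lists place the markers among their relatives. Of 26 genes for EF-hand calcium sensors and buffers 23 were tested and 20 had a lower mean in the libraries labelled cKO, with a median log2 fold change of -0.17. An unadjusted edgeR p under 0.05 was found for 11, Calb2 and Pvalb among them. Apart from Calb2 and Pvalb, which were selected on this contrast, edgeR called Vsnl1 alone. Vsnl1, which encodes the neuronal calcium sensor visinin-like protein, went from 30.9 ± 4.52 to 16.1 ± 4.39 CPM (SD, n = 5 each) and fell by 0.94 on the log2 scale (SE 0.166; edgeR adjusted p = 0.0188). Its call held in 6 of the 10 fits with a library left out, and the adjusted p reached 0.0759 without control 3. Oncomodulin (Ocm) and secretagogin (Scgn), the other buffers of this kind, were too low to be tested, with at most 62 and 3 counts per library.

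Among the 8 RUNX and POU4 family genes, 4 were lower and 4 higher. DESeq2 and limma-voom called 2 each and 2 had an unadjusted edgeR p under 0.05, while Runx1 was the only edgeR call. For its relatives Runx2 and Runx3 the log2 differences were 0.17 and 0.058, with edgeR adjusted p of 0.693 and 0.964. Cbfb, the DNA-binding partner of all RUNX proteins, had 148 ± 7.00 and 150 ± 6.97 CPM, a log2 fold change of 0.01. Pou4f2 went from 7.91 ± 0.561 to 4.87 ± 1.09 CPM (SD, n = 5 each) without overlap, or -0.70 on the log2 scale (SE 0.153; edgeR adjusted p = 0.0618). Pou4f3, a hair cell factor, had a log2 fold change of -0.07 (SE 0.201; edgeR adjusted p = 0.926).

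Of the 12 genes of spiral ganglion identity 7 were lower, and 1 was called, Slc17a7, the vesicular glutamate transporter of these neurons (-1.13, SE 0.138; edgeR adjusted p = 0.00108). DESeq2 also called 1 of the 12, while limma-voom called 6, and 6 had an unadjusted edgeR p under 0.05. Their summed CPM was 639 to 904 in the controls and 796 to 816 in the libraries labelled cKO.

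Of 12 non-clustered protocadherin genes, the family of Pcdh20, 10 were higher and 2 lower with a median of 0.13. In this family edgeR called 0, with 1 gene at an unadjusted p under 0.05, and DESeq2 and limma-voom called 0. In the Ly6 family of Lypd1, 6 of 7 tested genes were lower, with a median of -0.30. Here edgeR called 0, with 3 at an unadjusted p under 0.05, while DESeq2 and limma-voom called 1 each. Among 8 intermediate filament genes, the family of Prph, 6 were lower and the only edgeR call was Ina.

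Markers of other cells in the dissected tissue were measured in the same way. Schwann cell and satellite glia genes were lower in 10 of 12 cases, with sums of 1429 to 1678 CPM in the controls and 1014 to 1501 CPM in the libraries labelled cKO. Of these glial genes edgeR called 0, with 7 at an unadjusted p under 0.05, and DESeq2 and limma-voom called 3 each. Of 12 brain genes 6 could be tested and 4 were called lower: Olig1, Olig2, Aqp4 and Cbln1, with log2 fold changes of -2.75, -2.04, -1.61 and -0.89 and edgeR adjusted p between 0.000246 and 0.0399. Gabra6, of the brain list, had 0 counts in every library. Calb2 and Calb1 are made in many brain neurons. The part of brain tissue, or of cochlear cells other than neurons, in the values of Calb2 and Calb1 was not tested beyond the covariation given below. The summed brain genes had 91.2 to 151 CPM in the controls and 112 to 165 CPM in the libraries labelled cKO. The mean log2 CPM of the same list, which weights its genes equally, was 2.70 to 2.98 in the controls and 1.52 to 2.10 in the libraries labelled cKO, and 5 of the 6 tested genes were lower. The call of Cbln1 held in 2 of the 10 fits with a library left out, and the adjusted p reached 0.114 without cKO 4. Of 13 supporting cell genes 6 were lower, and Fgf10 was called (-0.51, edgeR adjusted p = 0.0360). Leaving out a library kept that call in 4 of 10 cases, and the highest adjusted p was 0.117, without control 3. Of 7 genes of other cranial ganglia 5 were too low to be tested. Of the 2 tested genes edgeR called 0, with 1 at an unadjusted p under 0.05, and DESeq2 and limma-voom called 1 each. The 7 genes summed to 39.8 to 63.0 CPM in the controls and 26.1 to 44.2 CPM in the libraries labelled cKO.

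To ask how the markers varied together apart from genotype, each marker's log2 CPM was centred on its group mean, and the 36 pairs were correlated over the 10 libraries. The median Pearson r was -0.07, with 15 pairs positive and 21 negative, so the markers did not vary as a block. The strongest pair was Calb2 with Calb1, at r = 0.87 (exact permutation p = 0.00243 within genotypes, adjusted p = 0.0875) and Spearman's rho = 0.95 (exact permutation adjusted p = 0.0300). Without control 2 and cKO 5, the libraries with the most extreme Calb2, r was 0.76. Without control 2 alone r was 0.80 and rho was 0.78, and no pair passed the threshold by either measure, with a lowest exact permutation adjusted p of 0.0625 for r and 0.413 for rho. The 2 type Ia markers, Calb2 and Pcdh20, had r = -0.36 (exact permutation p = 0.324) and rho = -0.25 (p = 0.521). The type Ic markers Lypd1 and Pou4f1 had r = 0.69 (exact permutation p = 0.0867) and rho = 0.26 (p = 0.508), and without control 2 and cKO 4 r was 0.27. Without control 2 alone r was 0.74 (exact permutation p = 0.112). Runx1 had r = 0.46 with Lypd1 and 0.25 with Pou4f1 (exact permutation p = 0.150 and 0.405). Prph and Th had r = 0.31 (exact permutation p = 0.456) and rho = 0.079 (p = 0.852). The most negative pair was Pcdh20 with Th, at r = -0.77 and rho = -0.65 (exact permutation p = 0.0214 and 0.0451, adjusted p = 0.385 and 0.574).

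The markers were also set against the mean log2 CPM of 4 cell type lists in the same centred way, which gave 36 relations. Pvalb followed the general neuronal genes, with r = 0.89 (exact permutation p = 6.94e-05, the smallest that can be reached; adjusted p = 0.0025) and rho = 0.87 (adjusted p = 0.0275), and r = 0.94 without control 2 and cKO 1. It also followed the Schwann cell and satellite glia genes, with r = 0.89 (exact permutation adjusted p = 0.0638) and rho = 0.84 (adjusted p = 0.0275). Lypd1 had r = 0.74 with the general neuronal genes (exact permutation adjusted p = 0.439) and rho = 0.68 (adjusted p = 0.487). Without control 2 its r was 0.93 (exact permutation adjusted p = 0.0187). Pou4f1 had r = 0.88 and rho = 0.30 with the same genes (exact permutation adjusted p = 0.439 and 0.771). Without cKO 1 and cKO 4 r was -0.065, so that relation rests on those libraries. Calb2 and Calb1 had r = 0.012 and -0.077 with the general neuronal genes (exact permutation p = 0.981 and 0.826). Runx1 had r = 0.18 with the same genes (exact permutation p = 0.576). With the brain genes, Calb2 and Calb1 had r = 0.50 and 0.24 (exact permutation p = 0.186 and 0.413). Without control 2 and cKO 5, the r of Calb2 with the brain genes was 0.61. With the hair cell genes, Calb2 and Calb1 had r = -0.37 and -0.13 (exact permutation p = 0.318 and 0.720). Pcdh20 had its highest r, 0.70, with the hair cell genes (exact permutation p = 0.0446, adjusted p = 0.439), and rho was 0.50 (p = 0.162).

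**Figure D5:**
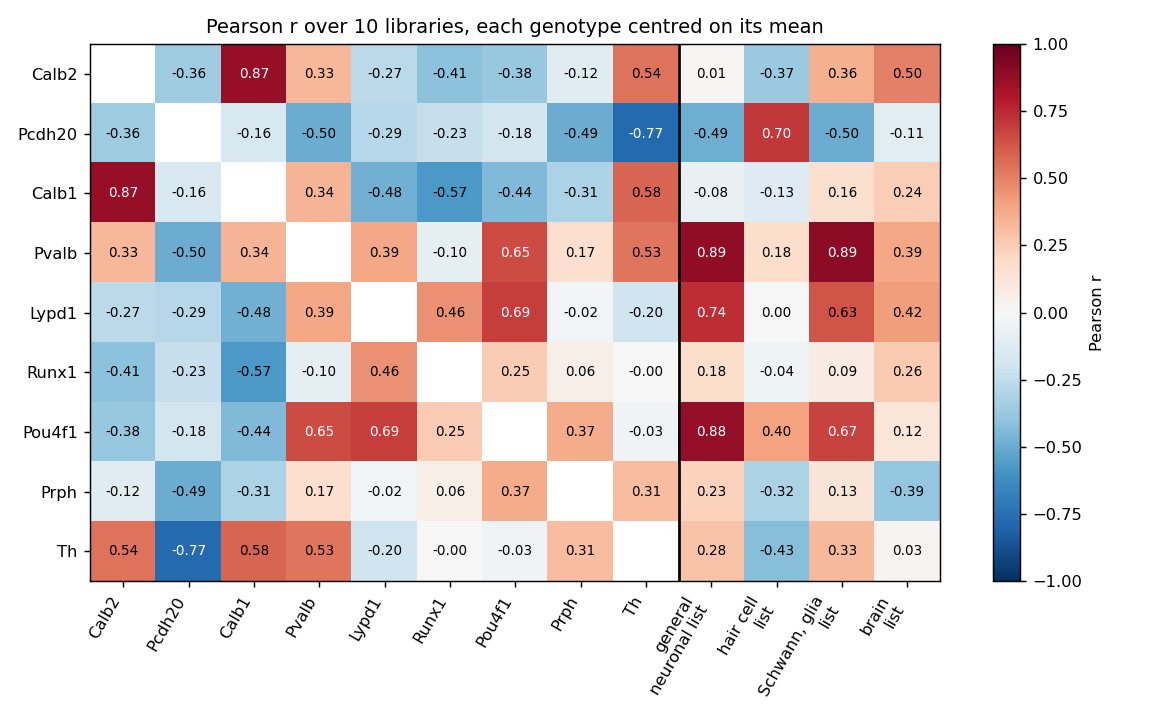
Pearson r of centred log2 CPM over 10 libraries, among the 9 markers (left) and of each marker with the mean of 4 cell type lists (right of the line). Calb2 and Calb1 had r = 0.87 with each other and near 0 with the general neuronal genes, which Pvalb followed at r = 0.89.

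The tested genes whose centred log2 CPM was most like each marker over the 10 libraries are given as a description, since every value shares the same libraries and their depth. Closest to Calb2 was Anxa5, with r = 0.97, and 100 tested genes had r above 0.9 with it. Calb1 had 281 such genes, with Samd1 and Fkbp4 first at r = 0.99. Pvalb had 49, led by Rtn3 and Chga at r = 0.98; Chga encodes chromogranin A, a protein of secretory granules. Lypd1 had 37, led by Mapt, the gene of the neuronal protein tau, at r = 0.95. Pou4f1 had 33, led by Cdk5r2, a neuronal activator of the kinase Cdk5, at r = 0.99, with Rbfox3, the NeuN gene, next at 0.96. Runx1 had 18, led by Scd2 at r = 0.98, and Th had 24, led by Pcyt2 at 0.98. Prph had 8, led by Gpihbp1 at r = 0.95, and Pcdh20 had 2, led by Atxn7l3 at 0.93.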

How the data were processed

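Polyadenylated RNA was read as paired reads of 150 bases. The submitters' processing notes name STAR, HTSeq and the build mm10; neither annotation nor strandedness is given in the sources used here. The authors deposited whole-number counts per Ensembl gene and FPKM values. Exon lengths implied by the deposited FPKM values were within 0.1% of GENCODE M21 (GRCm38) for 95.3% of 13923 genes that reached 50 counts in each library, so symbols and positions come from it. From the counts, genes were kept by filterByExpr in edgeR 4.0.16 (minimum 10 counts) and scaled by TMM, and CPM was computed. Genotypes were compared by the edgeR quasi-likelihood test (robust) with Benjamini-Hochberg adjustment over 17937 genes, and those with an adjusted p under 0.05 were called. SE was derived from F, and 95% intervals are per gene. In simulated data of 5 against 5 libraries with 17736 genes, 75.8% of genes changed by 1 log2 unit and 100% changed by 2 were called. Among the genes left unchanged 12 were called. Changes under 1 log2 unit, the size seen for every marker other than Calb2 and Pvalb, were not simulated, and neither was an outlying library.

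Ratios and correlations used log2 CPM with a prior count of 2 and exact two-sided permutation tests, over 252 assignments of libraries or 14400 permutations within genotypes. The named genes were Esrrg, the 9 markers, called members of the lists, listed relatives of a marker, and up to 3 genes most like each marker. A called gene of the lists is not reported here. The markers and lists were chosen with earlier results of these data known. Alternatives were DESeq2 1.42.0 and its size factors, upper-quartile factors, limma 3.58.1 (voom with quality weights, or log2 of FPKM plus 1 or 0.1), no filter or at least 1 CPM in 5 libraries, no robust estimation, an adjusted p under 0.1, the replicate number as a block, a prior count of 0.5, another reference list, and leaving out each library.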

Additional observations from a re-analysis of the deposited data

Results flagged for a closer look

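In 46 measures, each examined in both groups of 5 libraries, Dixon's test marked 9 cases of a single extreme library. By chance about 5% of the 92 groups, or 4.6, would be marked. Of these cases 6 fell on control 2, 2 on control 5 and 1 on control 1, and several share their genes. Control 2 was high for Pvalb CPM, at 132 against 68.2 to 81.0 in the other controls, which is also the single-gene list of the graded type I marker. Relative to the general neuronal genes its Pvalb stood at 0.34 against -0.45 to -0.27. It was high for the summed type Ia list, at 186 CPM against 125 to 141, and for the summed general neuronal list, at 2090 against 1724 to 1822 CPM. It was low for the summed non-clustered protocadherins, at 313 against 401 to 426 CPM. Control 5 was high for Prph, at 42.1 against 11.5 to 18.6 CPM, and low for the log2 ratio of Calb1 to Prph, at 0.80 against 2.70 to 2.96. Control 1 was high for Pcdh20, at 55.3 against 36.7 to 39.5 CPM. No cause was tested for these cases.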

How the results depend on the processing

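Runx1 was called lower in all 20 alternative edgeR, DESeq2 and limma fits of its fold change, and Calb1, Pcdh20, Pou4f1 and Th were called in none. Lypd1 was called in 1 of the 10 fits with a library left out and in 3 of the 10 other settings. For Prph these counts were 1 and 0. With all libraries, 98 genes were lower and 13 higher. DESeq2 called 253 lower and 54 higher, limma-voom 290 and 50, and an adjusted p under 0.1 gave 24 higher. With a library left out, 44 to 178 genes were lower and 8 to 19 higher, and 2 to 4 markers passed the threshold, a count that includes Calb2 and Pvalb, which were selected on this contrast. In those fits the log2 fold change of Pou4f1 ran from -0.16 to 0.085, above 0 without cKO 2 (0.0074), cKO 4 (0.085), control 1 (0.014) or control 5 (0.00027). The same fits moved the log2 ratio differences to between -0.012 and 0.28 for Pcdh20 to Calb1, 0.10 and 0.46 for Pcdh20 to Pou4f1, -0.81 and -0.22 for Pcdh20 to Prph, -0.026 and 0.28 for Calb1 to Pou4f1, -0.98 and -0.44 for Calb1 to Prph, and -1.03 and -0.58 for Pou4f1 to Prph. Relative to general neuronal genes they gave -0.45 to -0.29 for Lypd1, 0.25 to 0.33 for Pou4f1, 0.88 to 1.36 for Prph and -0.27 to -3.68e-05 for Th. With the identity list, Lypd1 was at -0.52 and Runx1 at -0.67. Relations called with cell type lists were 1, and 2 without control 2. The cause of these shifts was not tested. With the replicate number as a replicate block, 83 genes were lower and 18 higher and 2 markers passed the threshold, with Runx1 the only one among the 7 given a test. With this block the edgeR adjusted p of Esrrg was 0.0562, above the threshold. Same-numbered libraries had correlated deviations of 0.021 to 0.18, and 6 of 10 libraries correlated best with their own number. The labels do not say what the numbers stand for. The main tests did not take them as pairs, and whether libraries of the same number are related was not tested. Paired sign changes of 5 differences cannot go below an exact p of 0.0625. Th, at 49 to 111 counts per library, is the marker most limited by depth.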
